A study of Homo sapiens with 6 samples.

Results

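The genes described here are 10 transcripts known to answer to signals of the TGF-beta and BMP family, namely ID1, ID2, ID3, ID4, SMAD6, SMAD7, SMURF2, BAMBI, SKIL and THBS1. They were found by symbol among the 60664 Ensembl genes of the deposited count table. All 10 were found, and all 10 were among the 17638 genes tested. The cells were HCT8, a line labelled as colorectal cancer, in culture. In 3 libraries they had been transfected with a control plasmid (genotype WT), and in 3 with a plasmid for overexpression of GPT1, the alanine aminotransferase with the gene symbol GPT. The labels give neither the time after transfection nor the share of cells that took up the plasmid, and say nothing of separate cultures, so each p-value measures the spread between libraries that may be technical replicates.

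TGF-beta, activin and BMP ligands bind pairs of serine/threonine kinase receptors, which phosphorylate receptor-regulated SMAD proteins. These join SMAD4, enter the nucleus and regulate genes, some of which encode inhibitors of the same pathway. SMAD6 and SMAD7 are the inhibitory SMADs, SMURF2 is a ubiquitin ligase that works with SMAD7 on the receptors, BAMBI is a decoy receptor without a kinase, and SKIL encodes SnoN, a nuclear repressor of SMAD complexes. The ID proteins are helix-loop-helix proteins without a DNA-binding region that capture E proteins, and ID genes are classic BMP targets. THBS1 encodes thrombospondin 1, a matrix protein that can release TGF-beta from its latent form. In the intestine BMP signals favour differentiation of the epithelium, and TGF-beta restrains its growth.

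Of the 10 genes, ID1, ID2, ID4, SKIL and THBS1 fell with GPT1, by 25.6% to 46.5%, and 0 rose (edgeR; at an unadjusted p under 0.05 it was 1, ID3, and by DESeq2 and limma voom 0). ID3 went from 94.7 ± 16.4 to 117.2 ± 10.8 CPM (counts scaled to the TMM-adjusted size of their library; SD, n = 3 per group) and did not pass the test. The fitted changes of SMAD6, SMAD7 and BAMBI were -0.754%, 0.967% and 0.104%, and these 3 were uncalled with an absolute log2 fold change under 0.1, as were 20.1% of all tested genes. The 5 that fell stand against a background in which 14.6% of all tested genes were called lower, 10.5% were called higher and 25.1% were called in either direction (adjusted p under 0.05 by the quasi-likelihood test of edgeR, adjusted over all tested genes). Of the called genes 41.9% were higher, and 56.4% with an offset for transcript length and GC content. The CPM values of the 2 groups did not overlap for the same 5 genes, all lower, while 43.4% of all tested genes did not overlap and 22.2% were lower without overlap. The members' median log2 fold change was -0.33, and that of all tested genes -0.02. Without GPT1 replicate 3 only ID4 and THBS1 passed, and with the length and GC offset ID1, ID2, ID4 and THBS1 did.

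The overexpressed transcript matched the labels. GPT had 3 to 14 counts in the control libraries and 96886 to 106063 in the GPT1 libraries (log2 fold change 13.42 ± 0.19 SE, adjusted p = 1.22e-11, edgeR). Total counts ran from 21255655 in control replicate 3 to 32487217 in control replicate 1. Libraries also differed by transcript length and GC content. Across 14821 genes, the deviation of control replicate 3 from the mean of all libraries correlated with GC content at a Spearman rho of -0.59. In control replicates 1 and 2 this rho was -0.042 and 0.093, and in GPT1 replicates 1 to 3 it was 0.54, -0.14 and 0.33. With transcript length the rho was 0.35, 0.054 and 0.35 in control replicates 1 to 3. It was -0.43, -0.12 and -0.28 in GPT1 replicates 1 to 3. The length trend thus ran with the groups and cannot be told apart from an effect of GPT1. The GC trend ran with the groups in part, with GPT1 replicate 2 inside the range of the controls, and cannot be told apart either. These are descriptions across genes that are not independent. Of 13 colorectal epithelial markers, CDX1 (0 to 5 counts a library), KRT20 (0 to 5) and GPA33 (3 to 14) were at or near 0, CDX2 stood at 41.7 ± 4.46 and 45.3 ± 3.56 CPM, and 9 of the 10 tested fell with GPT1. Their summed level was 944 to 1060 CPM in the controls and 595 to 651 CPM in the GPT1 libraries, the part of which in the results below was not tested. KRT8 and KRT18 were the highest, at 528.7 and 260.5 CPM in the controls and 351.4 and 171.3 CPM with GPT1. In the controls EPCAM stood at 24.8, VIL1 at 12.3, CDH17 at 3.97 and LGALS4 at 3.91 CPM, so the sum says little of these markers. Fibroblast markers summed to 52.2 to 56.3 and 65.8 to 68.4 CPM, with FAP and THY1 at 0 in all libraries. Neural and kidney-line markers summed to 483 to 581 and 276 to 286 CPM. NEFM and NEFL were the highest of these, at 292.3 and 151.5 CPM in the controls and 104 and 83.0 CPM with GPT1. Of the 8 tested, 3 fell (NEFM, NEFL and MAP2), 0 rose and the rest did not pass. Among the latter, INA (51.85 and 61.07 CPM) and SIX2 (18.98 and 24.02 CPM) had the higher mean with GPT1. Endothelial, leukocyte, erythroid and hepatocyte markers summed to at most 4.8 CPM each. In bulk RNA, fewer cells of a type and less RNA per cell cannot be told apart.

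The 4 ID genes lie on chromosomes 20 (ID1, GRCh38 31605283 to 31606515), 2 (ID2, 8678845 to 8684453), 1 (ID3, 23557918 to 23559794, minus strand) and 6 (ID4, 19837386 to 19840684). The 250 bases upstream of the RefSeq start (GRCh38.p14) are shown for ID1, ID4 and THBS1, since these fell and the latter 2 did so in every alternative, and for SMAD6, which did not pass the test and holds the rarest letters searched. The windows of ID2, ID3 and BAMBI and the first of SMAD7 lie largely or wholly in exons of the same gene annotated by GENCODE 29 (202, 250, 179 and 250 of 250 bases) and are described by their matches only. Capitals mark GTCT on either strand, the short site that SMAD3 and SMAD4 recognise, and GGCGCC, a GC-rich SMAD site. The windows are chr20:31605039-31605288 (ID1, plus strand), chr6:19837120-19837369 (ID4, plus), chr15:39580829-39581078 (THBS1, plus) and chr15:66701986-66702235 (SMAD6, plus).
ID1: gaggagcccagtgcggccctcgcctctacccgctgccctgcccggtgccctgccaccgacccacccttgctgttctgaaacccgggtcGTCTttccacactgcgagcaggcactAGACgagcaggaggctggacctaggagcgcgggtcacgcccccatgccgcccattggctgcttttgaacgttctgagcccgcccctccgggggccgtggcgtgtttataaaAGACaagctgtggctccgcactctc
ID4: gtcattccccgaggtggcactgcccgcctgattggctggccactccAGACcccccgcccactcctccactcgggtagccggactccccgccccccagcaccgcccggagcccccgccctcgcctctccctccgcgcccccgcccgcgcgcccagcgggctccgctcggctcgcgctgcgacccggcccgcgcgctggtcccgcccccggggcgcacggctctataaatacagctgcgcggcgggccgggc
THBS1: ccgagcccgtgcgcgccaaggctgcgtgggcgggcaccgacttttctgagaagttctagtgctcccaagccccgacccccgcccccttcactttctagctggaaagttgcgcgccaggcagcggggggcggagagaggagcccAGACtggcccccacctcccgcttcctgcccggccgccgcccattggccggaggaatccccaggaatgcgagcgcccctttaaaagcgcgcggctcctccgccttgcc
SMAD6: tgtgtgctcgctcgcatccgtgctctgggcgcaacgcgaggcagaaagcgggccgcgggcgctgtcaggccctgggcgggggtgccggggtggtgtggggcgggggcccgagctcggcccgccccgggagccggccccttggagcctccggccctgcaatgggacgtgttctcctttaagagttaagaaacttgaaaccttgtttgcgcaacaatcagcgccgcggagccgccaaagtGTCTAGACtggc

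Windows were found for all 10 genes, 12 in all, since SMAD7 has 3 starts. GTCT occurred in every one of the 12, but 77.5% of all 35116 windows of this length hold it. BAMBI held 4 matches and the 3 SMAD7 windows held 4, 5 and 1, more at their highest than any gene that fell. ID1 and SKIL held 3 each, ID2, ID3 and SMAD6 held 2 each, and ID4, THBS1 and SMURF2 held 1 each. The 8-letter palindrome GTCTAGAC, in which a GTCT on each strand adjoin, occurred in 0.182% of all windows (64). Among the 12 it occurred only in SMAD6, where it begins at position -12 from the start. The last 8 bases of that window lie in a SMAD6 exon annotated by GENCODE 29, so the palindrome runs into this exon. GGCGCC was present in 16.4% of all windows, and among these genes in BAMBI, with 3 matches, and SKIL, with 1. A match is a description of the letters and not a bound site, and the window does not reach distal enhancers.

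ID1 and its close relatives ID2 and ID4 fell by similar proportions, about 25.6% to 29.1%. ID1 stood at 19.8, 20.3 and 18.7 CPM in control replicates 1 to 3 and at 15.9, 12.5 and 13.3 CPM in GPT1 replicates 1 to 3. Every GPT1 library lay below every control, and GPT1 replicate 1 came closest to them. This came to a log2 fold change of -0.50 ± 0.13 (SE; adjusted p = 0.0193, edgeR), a fall by 29.1%. The call ended when control replicate 1 (adjusted p = 0.0598), GPT1 replicate 2 (0.0563) or GPT1 replicate 3 (0.0862) was left out, and the adjusted p ranged from 0.000166 to 0.0862 over the 18 alternatives, with a log2 fold change between -0.67 and -0.41.

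ID2, which restrains differentiation in many lineages, stood at 105.5, 126.4 and 117.3 CPM in the controls and at 88.7, 85.6 and 80.8 CPM in the GPT1 libraries. Every GPT1 library lay below every control, with control replicate 1 closest to them. This was a log2 fold change of -0.45 ± 0.09 (adjusted p = 0.00794, edgeR), and without GPT1 replicate 3 the adjusted p was 0.055 (0.000204 to 0.055 over the 18 alternatives). The antisense gene ID2-AS1 overlaps it at 2.29 CPM in the controls and less with GPT1, and no source says whether strand was used in counting.

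ID4 stood at 139.5, 146.1 and 141.2 CPM in the controls and 112.0, 99.4 and 106.1 CPM in the GPT1 libraries. The groups were far apart relative to their spread. Its log2 fold change was -0.43 ± 0.08 (adjusted p = 0.00614, edgeR), and it passed in all 18 alternatives, with an adjusted p from 0.000158 to 0.0407. An antisense transcript, LNC-LBCS, overlaps it at 0.501 and 0.682 CPM.

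ID3, the other close relative of ID1, did not pass the test. It stood at 92.8, 112.0 and 79.4 CPM in the controls and at 126.8, 105.5 and 119.3 CPM in the GPT1 libraries. Control replicate 2 lay above GPT1 replicate 2, so the groups overlapped, and control replicate 3 was the lowest of all. ID3 thus had a log2 fold change of 0.31 ± 0.12 (95% interval 0.03 to 0.58), with an adjusted p of 0.0906 (edgeR). It passed without the expression filter (adjusted p = 0.0286), without control replicate 2 (0.0172), without GPT1 replicate 2 (0.0489) and without control replicate 3 and GPT1 replicate 2 together (0.032), and was at 0.14 with the offset for length and GC content, the adjusted p ranging from 0.0172 to 0.27.

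**Figure D1:**
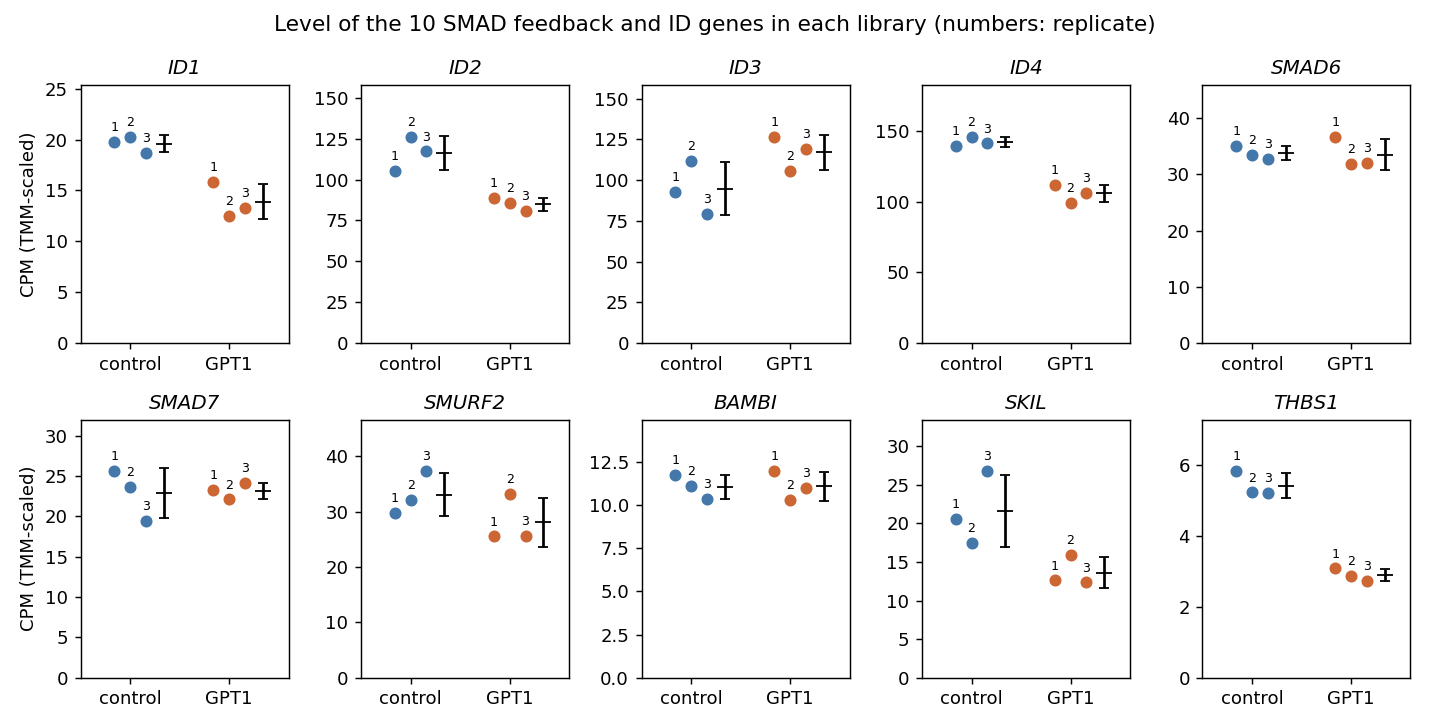
CPM (TMM-scaled, linear axes from 0) of each of the 10 genes in the 3 control and 3 GPT1 libraries, 1 point a library with its replicate number, and the group mean ± SD in black. ID1, ID2, ID4, SKIL and THBS1 do not overlap between the groups, whereas ID3, SMAD6, SMAD7, SMURF2 and BAMBI do.

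The make-up of the ID family was compared within each library, by the ratio of ID3 to each other ID gene and by shares. The ratio of ID3 to ID1 CPM was 4.69, 5.52 and 4.25 in the controls and 8, 8.43 and 8.97 in the GPT1 libraries. All 3 GPT1 libraries lay above all 3 controls, and the same held for ID3 to ID2 (0.814 ± 0.119 against 1.38 ± 0.13, SD, n = 3) and ID3 to ID4 (0.665 ± 0.102 against 1.11 ± 0.0386). An exact two-sided permutation test gave p = 0.1 for each of the 3 ratios, also after Benjamini-Hochberg adjustment, the smallest value that 3 against 3 libraries allow. The ratios were chosen after the values of the ID genes were seen, and all share ID3 as numerator. Ratios and shares were taken without the length and GC offset. With that offset the log2 fold change of ID3 was 0.14, and those of ID1, ID2 and ID4 were -0.67, -0.59 and -0.48. Per kilobase of the longest annotated transcript, ID3 made up 36% ± 3.35 of the summed CPM per kilobase of the 4 genes in the controls and 48.8% ± 1.46 with GPT1, while ID1 went from 7.61% ± 0.413 to 5.86% ± 0.345, ID2 from 27.3% to 21.8% and ID4 from 29.1% to 23.6%.

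**Figure D2:**
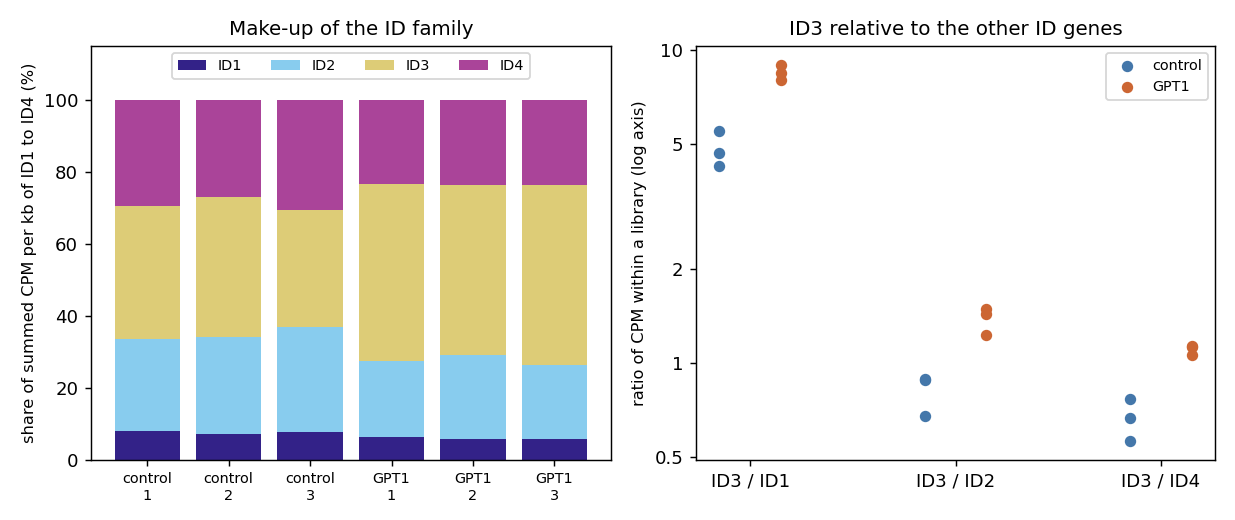
Left, the share of each ID gene in the summed CPM per kilobase of ID1 to ID4, 1 bar a library; right, the ratio of ID3 CPM to that of ID1, ID2 and ID4 in each library on a log axis, 1 point a library. The ID3 share lies between 32.3% and 38.9% in the controls and between 47.2% and 49.9% in the GPT1 libraries.

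Neither inhibitory SMAD gene passed the test. SMAD6 (chromosome 15, 66702228 to 66782848), which acts mostly on BMP receptors, stood at 35.1, 33.4 and 32.8 CPM in the controls and at 36.7, 31.8 and 32.02 CPM with GPT1. The highest and the lowest value of SMAD6 both came from GPT1 libraries. Its log2 fold change was -0.01 ± 0.10, with a 95% interval of -0.24 to 0.22 (adjusted p = 0.948, edgeR). SMAD7 (chromosome 18, 48919853 to 48952052, minus strand), which acts on TGF-beta and BMP receptors alike, stood at 25.6, 23.7 and 19.5 CPM and at 23.3, 22.1 and 24.1 CPM. The GPT1 libraries lay inside the range of the controls (0.01 ± 0.12, interval -0.26 to 0.29, adjusted p = 0.946). On the log2 scale both 95% intervals lie between -0.26 and 0.29. They measure the spread between libraries that may be technical replicates, and do not show that there was no change.

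BAMBI (chromosome 10, 28677342 to 28682939) had 11.7, 11.1 and 10.4 CPM in the controls and 11.96, 10.29 and 11.01 CPM with GPT1, the groups lying on top of each other (0.0015 ± 0.12, interval -0.27 to 0.27, adjusted p = 0.994, edgeR). SMURF2 (chromosome 17, 64542295 to 64662068, minus strand) had 29.8, 32.1 and 37.3 CPM and 25.5, 33.1 and 25.6 CPM. GPT1 replicate 2 lay within the controls and the other GPT1 libraries below them (-0.23 ± 0.14, interval -0.53 to 0.06, adjusted p = 0.218). With the offset for length and GC content the value of SMURF2 was 0.12 (adjusted p = 0.255). CEP95 overlaps SMURF2 on the opposite strand (33.6 and 26.9 CPM), so reads that both share cannot be assigned with certainty.

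SKIL (chromosome 3, 170357678 to 170396835), the nuclear repressor, fell from 20.6, 17.5 and 26.8 CPM in the controls to 12.6, 15.9 and 12.4 CPM. Control replicate 3 was the highest control and GPT1 replicate 2 the highest GPT1 library, as in SMURF2. SKIL fell by 36.8% (log2 fold change -0.66 ± 0.17, adjusted p = 0.0196, edgeR). SKIL has the lowest GC content of the 10 genes (33.4%, in a longest transcript of 7182 bases), and with the offset for length and GC content its log2 fold change was -0.13 ± 0.09 (adjusted p = 0.278). The call also ended without GPT1 replicate 1 (0.0771) or GPT1 replicate 3 (0.0838), and the adjusted p ranged from 9.33e-05 to 0.316 over the 18 alternatives.

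THBS1 (chromosome 15, 39581079 to 39599466) had the largest fall of the 10, by 46.5%, at a low level. It stood at 5.83, 5.23 and 5.22 CPM in the controls (113 to 191 counts) and at 3.09, 2.88 and 2.74 CPM with GPT1 (84 to 96 counts). The groups were separated by far more than their spread, with SDs of 0.35 and 0.17 CPM. THBS1 passed in all 18 alternatives, with a log2 fold change between -0.95 and -0.69 (adjusted p from 2.01e-05 to 0.0182). FSIP1 overlaps THBS1 on the opposite strand at 0.223 and 0.173 CPM.

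**Figure D3:**
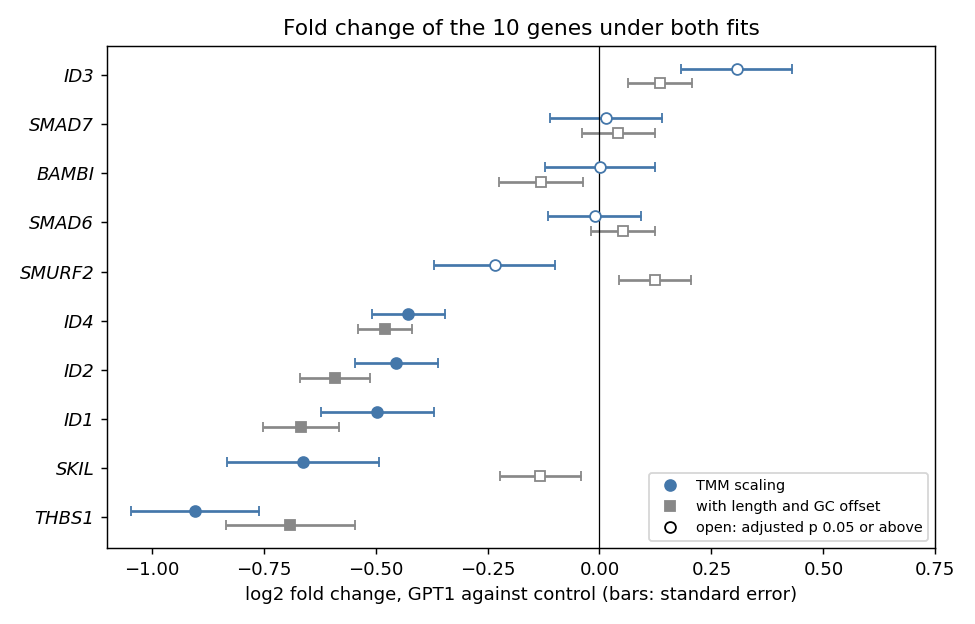
Log2 fold change of GPT1 against control (horizontal axis, bars: standard error) for the 10 genes with TMM scaling (circles) and with an offset for transcript length and GC content (squares); filled symbols passed an adjusted p of 0.05. SKIL moves from -0.66 to -0.13 and SMURF2 from -0.23 to 0.12, while ID1, ID2, ID4 and THBS1 stay filled.

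Levels can be set side by side only per length. In the controls ID3 led with 75.7 ± 13.1 CPM per kilobase of its longest annotated transcript, followed by ID4 (60.7 ± 1.46) and ID2 (57.0 ± 5.14), whose means did not differ beyond their spread, and by ID1 at 15.9 ± 0.675. SMAD6 (6.50 ± 0.235), BAMBI (5.87 ± 0.366), SMURF2 (5.61 ± 0.652) and SMAD7 (5.17 ± 0.709) formed a group of near-equal levels in which the last 3 did not differ beyond their spread. SKIL (3.01 ± 0.659) and THBS1 (0.698 ± 0.0449) were lowest. With GPT1 the order was the same except that SMAD7 (5.23 ± 0.227) stood above SMURF2 (4.77 ± 0.745), and ID3 (93.7 ± 8.64) stood further above ID4 (45.2 ± 2.70).

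**Figure D4:**
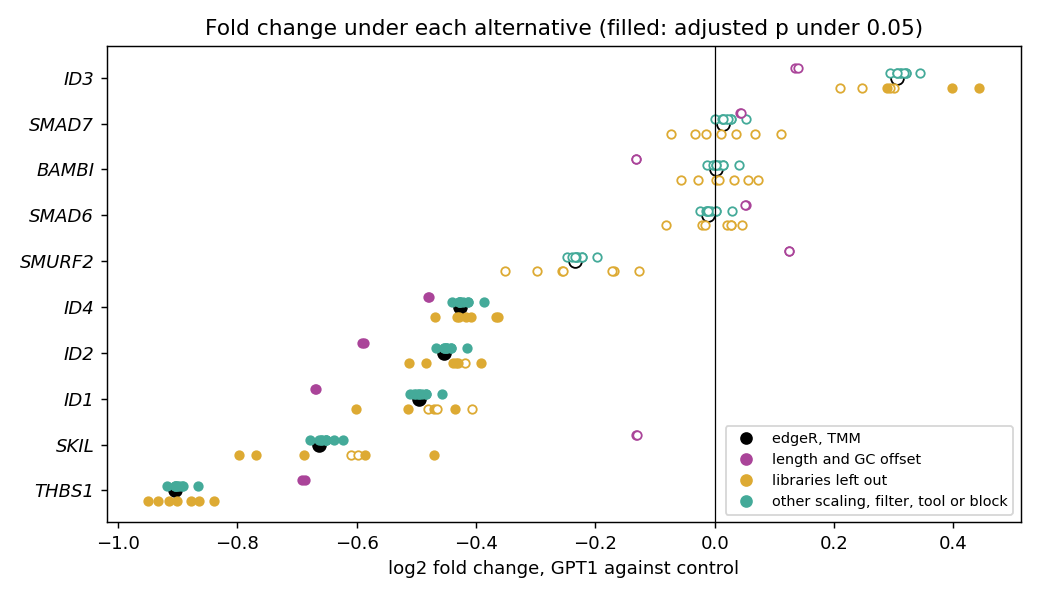
Log2 fold change of the 10 genes (horizontal axis) under the edgeR fit with TMM scaling (black) and under the 18 alternatives, 1 point each; filled points passed an adjusted p of 0.05. THBS1 and ID4 are filled throughout, and SKIL is open and near -0.13 with the length and GC offset.

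The genes whose values over the 6 libraries were most like those of 3 of these genes were looked up among 11422 genes with a mean of at least 5 CPM. For ID1 they were LARGE2, SLC25A29 and EML2-AS1 (Pearson r of log2(CPM + 1) 0.9965, 0.9947 and 0.9919), for SMAD7 they were ARAP3, ANKRD52 and ABL1 (0.9942, 0.9902 and 0.9894), and for THBS1 they were JAG1, TINAGL1 and RHBDF2 (0.9968, 0.9964 and 0.9959). The genes alike to ID1 were themselves called lower (log2 fold change -0.446, -0.608 and -0.576). So were those alike to THBS1 (-0.843, -2.13 and -0.422), beside 14.6% of all tested genes, and those alike to SMAD7 did not pass. These are the extremes of many genes over 6 libraries, in which group and composition are shared by many genes. They are a description.

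Around these genes, more genes in lists drawn around the TGF-beta and BMP pathways were called lower than higher. The lists were chosen with earlier results of these data known, so the shares below are a description. The 10 lists of ligands, receptors, SMADs, antagonists, inhibitors, targets and ID partners held 125 further genes, 6 of them in more than one list, of which 114 were tested. Of these, 37 fell (32.5%, beside 14.6% of all tested genes), 4 rose (3.51%, beside 10.5%) and 73 did not pass, with a median log2 fold change of -0.23. The number that fell was 20 when control replicate 1 was left out, 19 without GPT1 replicate 1 and 13 without GPT1 replicate 3, and the number that rose was 2 without either of the latter and 8 with the length and GC offset.

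**Figure D5:**
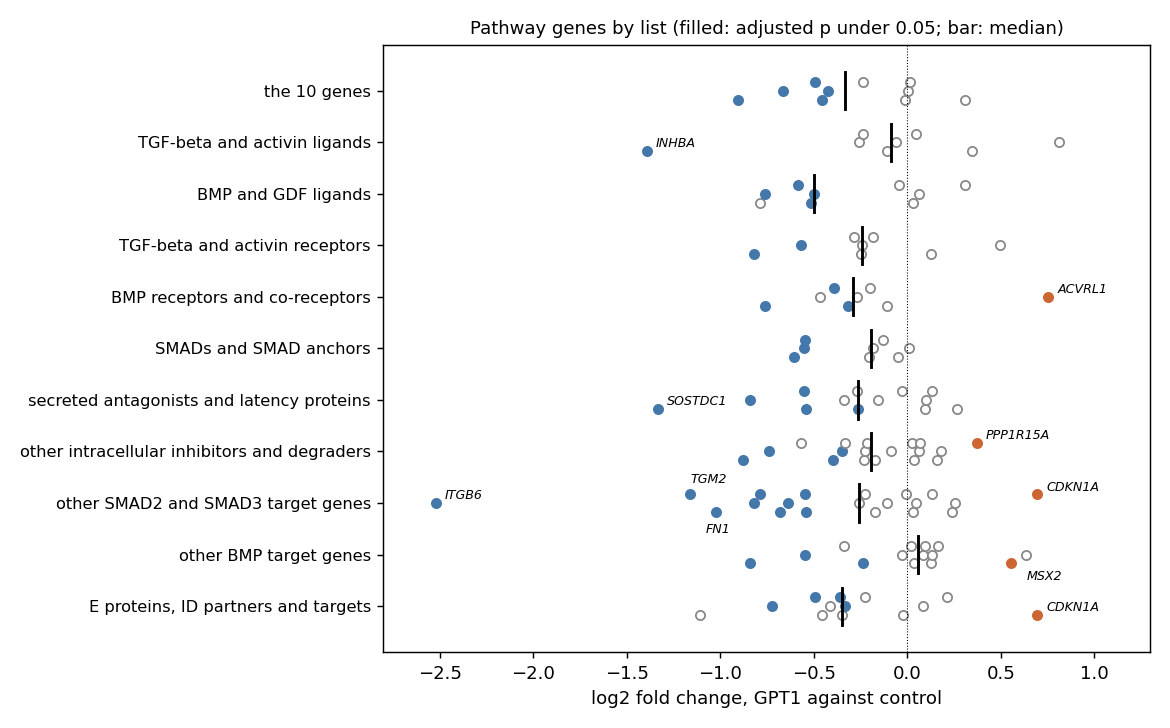
Log2 fold change (horizontal axis) of the tested genes among the 10 genes and of the 10 pathway lists, 1 point a gene, blue where it was called lower, orange where it was called higher and open where it did not pass; the bar is the list's median. Of the SMAD2 and SMAD3 targets 1 gene is not drawn but counts in its list's median. ITGB6, at few counts, lies furthest left of the genes drawn at -2.52, and the medians of all lists but that of other BMP targets lie below 0.

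Among the ligands, INHBA, which encodes the activin A subunit, fell most. It stood at 98.9, 69.1 and 138.9 CPM in the controls and at 36.5, 41.2 and 39.2 CPM with GPT1, so that the controls scattered widely and the GPT1 libraries hardly at all (log2 fold change -1.39 ± 0.20, adjusted p = 0.00137, edgeR). It was the 1 of 8 tested TGF-beta and activin ligands that fell, while 2 fell without control replicate 3, and 3 fell and 1 rose with the length and GC offset. TGFB1, the main TGF-beta isoform, stood at 80.9 ± 7.003 and 67.6 ± 4.49 CPM (adjusted p = 0.0693), the 2 groups not overlapping, and passed without control replicate 3 (0.0247) and with the length and GC offset (-0.32, 0.00201), its adjusted p ranging up to 0.252. INHA (0.52 ± 0.15 and 0.92 ± 0.15 CPM), INHBB (adjusted p = 0.209) and GDF15, the most abundant of the list (84.0 ± 18.5 and 78.0 ± 6.41 CPM), did not pass. GDF15 passed with the length and GC offset, at -0.26 (adjusted p = 0.0243).

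Of 9 tested BMP and GDF ligand genes, 4 fell and 5 did not pass. BMP4, a BMP2 relative active in gut mesenchyme, went from 23.8, 24.1 and 22.8 CPM to 15.7, 12.8 and 13.2 CPM (-0.76 ± 0.12, adjusted p = 0.00236, edgeR). The groups were well apart, and BMP4 passed in all 18 alternatives. BMP6 (-0.58), GDF7 (-0.52) and BMP8B (-0.50) fell too, and without GPT1 replicate 3 they did not pass (adjusted p = 0.0505, 0.0632 and 0.0569, the highest of each gene's 18 alternatives), so that BMP4 was the 1 ligand left. BMP8B and BMP8A are close paralogs, so reads may be split between them. BMP7, the most abundant of the list, stood at 79.4 ± 5.35 and 83.1 ± 5.06 CPM (95% interval of the log2 fold change -0.13 to 0.26).

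The type II TGF-beta receptor gene TGFBR2 fell from 29.4 ± 1.20 to 19.8 ± 1.98 CPM (-0.57 ± 0.11, adjusted p = 0.00775, edgeR), and the co-receptor gene TGFBR3 from 19.95 ± 2.66 to 11.3 ± 2.33 CPM (-0.82 ± 0.17, adjusted p = 0.00783). These were 2 of 8 tested in their list. Without GPT1 replicate 3, TGFBR2 reached an adjusted p of 0.05 and was no longer called, which left TGFBR3. TGFBR1 (30.8 ± 4.48 and 25.2 ± 4.40 CPM), ENG and the abundant activin receptor gene ACVR1B (73.5 ± 5.53 and 80.4 ± 3.26 CPM) did not pass. ENG rose past the threshold without control replicate 1 (0.80, adjusted p = 0.0422), and TGFBR1 was at 0.10 with the length and GC offset and passed at -0.30 (0.038) without control replicate 3 and GPT1 replicate 2 together.

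Of 8 tested BMP receptor and co-receptor genes, 3 fell and 1 rose. The type II receptor gene BMPR2 went from 53.9, 44.5 and 65.5 CPM to 26.5, 37.3 and 32.8 CPM (-0.76 ± 0.16, adjusted p = 0.00882, edgeR), and it was called at -0.25 with the length and GC offset. The co-receptor genes RGMB (-0.39, adjusted p = 0.0271) and NEO1 (-0.32, adjusted p = 0.0451) fell, and ACVRL1, a type I receptor gene best known in endothelium, rose from 1.87 ± 0.38 to 3.19 ± 0.50 CPM (0.75 ± 0.20, adjusted p = 0.0231). The calls of RGMB and ACVRL1 ended without GPT1 replicate 1 or 3 (adjusted p up to 0.138 and 0.0958), RGMB also without control replicate 1 (0.0827) and when replicate numbers were a block (0.0544). NEO1 was called in 8 of 18 alternatives (0.0139 to 0.201), ending with the block (0.0823), with the length and GC offset (-0.17), with DESeq2 and its size factors, with upper quartile scaling and without control replicate 1 or any GPT1 library. In this list 1 gene fell when control replicate 1, or GPT1 replicate 1 or 3, was left out.

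Among the signalling SMAD genes and their partners, 3 of 8 tested fell. SMAD5, which with SMAD1 and SMAD9 carries BMP signals, went from 92.8 ± 25.0 to 60.9 ± 10.9 CPM (-0.61 ± 0.18, adjusted p = 0.0326, edgeR). SMAD9 went from 27.8 ± 1.17 to 19.0 ± 3.004 CPM (-0.55 ± 0.13, adjusted p = 0.0149). TRIM33, a SMAD4-binding ubiquitin ligase gene, fell by 0.55 on the log2 scale (adjusted p = 0.0399) with groups that overlapped. SMAD1 did not pass (26.3 ± 1.7 and 25.4 ± 1.1 CPM, adjusted p = 0.749). SMAD3, a carrier of TGF-beta signals, did not pass (50.2 ± 4.64 and 44.3 ± 2.35 CPM). Control replicate 3 was the highest library for SMAD5 and TRIM33, whose longest transcripts have a GC content of 36.9% and 39.0%, and with the length and GC offset they did not pass (-0.13 and -0.11, adjusted p = 0.164 and 0.24), leaving 1 gene that fell and 2 that rose. Without control replicate 1 or without GPT1 replicate 1 or 3, SMAD5 and TRIM33 did not pass (adjusted p up to 0.123 and 0.148), nor TRIM33 without control replicate 3 (0.061), nor SMAD9 without GPT1 replicate 1 or 3 (up to 0.0741). Without control replicate 1 the list had 1 gene that fell, and without either of those GPT1 libraries 0 by edgeR.

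Among 13 tested genes of secreted antagonists and latency proteins, 5 fell, and the latency genes did not pass. SOSTDC1, an antagonist of BMP and Wnt signals, went from 1.40, 1.49 and 1.94 CPM to 0.45, 0.79 and 0.65 CPM (-1.34 ± 0.28, adjusted p = 0.00879, edgeR) and passed in all 18 alternatives. The BMP antagonist genes NOG (-0.84 ± 0.22, 2.58 ± 0.47 to 1.43 ± 0.27 CPM) and CHRD (-0.54 ± 0.16) and the BMP-binding TWSG1 (-0.55 ± 0.17) fell as well. FSTL1 was the other that fell, from 169.3 ± 12.9 to 141.0 ± 6.23 CPM (-0.26 ± 0.09, adjusted p = 0.0441). NOG and CHRD did not pass when control replicate 1, GPT1 replicate 2 or GPT1 replicate 3 was left out (adjusted p at most 0.0802 and 0.123), nor CHRD without control replicate 2 (0.0515). TWSG1 did not pass when replicate 1 or 3 of either group was left out (at most 0.131), and was at -0.19 with the length and GC offset (0.0782). The count of genes that fell was 1 without control replicate 1 or GPT1 replicate 3, 3 without control replicate 3 or GPT1 replicate 1, and 2 without GPT1 replicate 2.

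Among 18 tested genes of other intracellular inhibitors and degraders, 4 fell and 1 rose. LDLRAD4, which holds receptor SMADs away from the receptors, went from 5.69 ± 0.92 to 3.39 ± 0.45 CPM (-0.74 ± 0.17, adjusted p = 0.0133, edgeR). The deubiquitinase gene USP15, whose product is known to uphold TGF-beta signals rather than limit them, fell by 0.88 on the log2 scale (adjusted p = 0.0199). With the length and GC offset it fell by 0.30. The repressor gene TGIF1 fell from 25.2 ± 0.40 to 19.1 ± 0.28 CPM (-0.40 ± 0.10, adjusted p = 0.0207). UCHL5, also a deubiquitinase gene, was the other that fell (-0.35 ± 0.11, adjusted p = 0.0418), so not all 4 were genes of inhibitors. PPP1R15A, a phosphatase subunit of the stress response that also acts on the TGF-beta receptor, rose from 283.8 ± 30.5 to 367.3 ± 19.1 CPM (0.37 ± 0.09, adjusted p = 0.0186). Without GPT1 replicate 1 or 3, USP15, TGIF1 and PPP1R15A did not pass (adjusted p up to 0.0796, 0.0886 and 0.08), nor LDLRAD4 without GPT1 replicate 1 (0.0576). TGIF1 also failed without control replicate 1 (0.0678), without GPT1 replicate 2 (0.0559), with the block (0.0545) and with the length and GC offset (-0.25, 0.0677). With that offset 2 genes fell. The list had 2 genes that fell without control replicate 1, 0 without GPT1 replicate 1 and 1 without GPT1 replicate 3, and 0 that rose without either.

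Other SMAD2 and SMAD3 targets fell in 10 of 21 tested genes, and 1 rose. TGM2, a transglutaminase gene, fell from 13.1 ± 1.82 to 5.83 ± 0.33 CPM (-1.16 ± 0.14, adjusted p = 0.000544, edgeR), FN1 from 162.1 ± 18.7 to 79.9 ± 4.42 CPM and KLF10, an early TGF-beta response factor, from 85.2 ± 3.89 to 54.7 ± 1.96 CPM (-0.64 ± 0.09, adjusted p = 0.000984). Each of these 3 passed in all 18 alternatives, FN1 going from -1.02 to -0.68 with the length and GC offset. The 10 include ITGB6, named after its value was seen, which had 13 to 19 counts in the controls and 0 to 6 with GPT1 and entered the test only through the controls. CDKN1A, the cell cycle inhibitor p21, rose from 166.8 ± 19.7 to 269.7 ± 25.0 CPM (0.69 ± 0.10, adjusted p = 0.00188), also in all 18.

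Among 14 tested other BMP targets 3 fell and 1 rose, with a median log2 fold change of 0.06. MSX2, a homeobox gene induced by BMP, rose from 39.5, 43.5 and 33.8 CPM to 57.8, 55.8 and 57.9 CPM (0.55 ± 0.11, adjusted p = 0.00682, edgeR) while ID1, ID2 and ID4 fell. HEY1 (-0.24, adjusted p = 0.0378), NOG and SMAD9 were the 3 that fell, and HEY1 passed in 9 of 18 alternatives (adjusted p 0.0011 to 0.141), not with the block (0.134), with upper quartile scaling, with DESeq2, without the expression filter or without any library but control replicate 3. The count of genes that fell was 1 when control replicate 1 or GPT1 replicate 1 or 2 was left out, 0 by edgeR without GPT1 replicate 3, and 2 rose without control replicate 3, with upper quartile scaling and with the length and GC offset.

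The partners of ID proteins closed the set. TCF12, an E protein gene, fell from 54.9 ± 12.1 to 33.2 ± 6.49 CPM (-0.72 ± 0.17, adjusted p = 0.015, edgeR) and was at -0.40 with the length and GC offset, still called. HES1, a Notch target, and ETS2 fell by 0.33 and 0.36 on the log2 scale, and these were 3 of the 4 that fell among 13 tested, with RB1 the other. CDKN1A was the 1 that rose. Without GPT1 replicate 1 or 3, TCF12 did not pass (0.0616 and 0.0594), nor did ETS2 and HES1, which also failed without control replicate 1 or GPT1 replicate 2 and with the block (0.0567 and 0.0554), their adjusted p reaching 0.0875 and 0.111, as did HES1 without control replicate 2 (0.0542) and with upper quartile scaling (0.0523). The count of genes that fell was 1 without control replicate 1, 0 by edgeR without GPT1 replicate 1 or 3, 2 with the block and 7 without control replicate 3 and GPT1 replicate 2 together, and 2 rose without control replicate 2.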

How the data were processed

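mRNA of 6 HCT8 libraries (3 control, 3 GPT1) was sequenced. Reads were aligned to GRCh38 with HISAT2 2.0, per the submitters' processing notes. How reads were counted, with which annotation and whether by strand, is unstated: not given in the sources used here. The deposited values are raw counts per Ensembl gene, 1 column a sample, with no unused column. Symbols came from a table that named 60652 identifiers and left 12 unnamed, and coordinates, transcript lengths and GC contents from GENCODE 29.

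Counts were tested in R 4.3.3 with edgeR 4.0.16 (filterByExpr, TMM, glmQLFit and glmQLFTest, two-sided, Benjamini-Hochberg over 17638 genes, threshold 0.05; common biological coefficient of variation 0.119). CPM of single genes uses TMM-scaled library sizes, and marker sums use library totals. Standard errors and 95% intervals were derived from the F statistic. Replicates differed by far more than sampling noise (chi-square per degree of freedom 9.98 to 30.8), so none was taken for a library deposited more than once; this does not show that they came from separate cultures. Alternatives were 3 other scalings, 2 other filters, DESeq2 1.42.0, limma voom 3.58.1, the replicate number as a block, GPT left out, each library left out, and an offset of smooth functions (mgcv 1.9.3) of transcript length and GC content per library, alone and with the block; leaving out control replicate 3 and GPT1 replicate 2 together was chosen after seeing the data. The gene test and the offset were tested on simulated data, without a trend and with a GC trend added to control replicate 3. No length trend and no trend that runs with the groups was simulated, so how the offset acts there was not tested. Promoter windows are the 250 bases before RefSeq starts.

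The 10 genes and the lists were chosen with earlier results of these data known. Genes named were GPT, the 10 genes, and up to 4 genes with the smallest adjusted p in each of 10 pathway lists. The most abundant gene of each ligand, receptor and SMAD list was named too, and 3 genes alike to each of ID1, SMAD7 and THBS1. LNC-LBCS, ID2-AS1, CEP95, FSIP1, RB1, ITGB6, SMAD1, UCHL5, FSTL1 and the cell type markers were named after their values were seen. The values of 1 target gene that the rule names are not reported here.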

Additional observations from a re-analysis of the deposited data

How the results depend on the processing

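The number of genes called higher and lower was 1858 and 2572, 41.9% of them higher. It was 3452 higher with the length and GC offset (56.4% of the called genes) and 2870 with the offset and the replicate block, and ranged from 613 to 1970 higher and from 830 to 2937 lower when 1 library was left out, the lowest without GPT1 replicate 3. Without control replicate 3 and GPT1 replicate 2 together 2490 were higher and 3100 lower. Of the 10 genes, 5 were lower in the edgeR fit and 2 to 5 with 1 library left out. The 0 that were higher (1 at an unadjusted p under 0.05, and 0 by DESeq2 and limma voom) became 1, ID3, without the expression filter and without control replicate 3 and GPT1 replicate 2 together, and 0 to 1 with 1 library left out. The 4 further pathway genes that rose were 8 with the offset, 7 with the offset and block, and 2 to 5 with 1 library left out, and the 37 that fell were 13 to 37, and 43 without control replicate 3 and GPT1 replicate 2 together. GPT rose in each of the 17 alternatives that kept it.

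Signs that turned belonged to genes that did not pass the test. SMAD6 was at 0.0018 with DESeq2 size factors in edgeR, 0.0017 with DESeq2, 0.028 with upper quartile scaling, 0.052 with the offset, 0.051 with the offset and block, 0.027 without control replicate 3 and GPT1 replicate 2, and -0.081 to 0.046 with 1 library left out. SMAD7 was at -0.033 without those 2 libraries and at -0.073 to 0.11 with 1 left out. BAMBI was at -0.012 with library totals, -0.0027 with limma voom, -0.13 with the offset and also with offset and block, and -0.056 to 0.073 with 1 library left out. With the offset, alone or with the block, SMURF2 was at 0.12 and TGFBR1 at 0.10. GDF15 was at -0.24 to 0.063 with 1 library left out. The causes were not tested.

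The labels do not say whether libraries of the same replicate number belong together. Libraries also differ by transcript length and GC content, so the correlations here cannot decide it. Deviations from the group means of same-numbered libraries correlated at 0.28, -0.47 and -0.12, and control replicate 3 correlated best with GPT1 replicate 2 (0.60), not with its own number. With the replicate number as a block 1416 genes were higher and 2470 lower, and the same 5 of the 10 genes fell. Genes at the level of THBS1 or below rest on few counts a library (84 to 191 for THBS1), which limits their precision.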
